A study of Mus musculus with 13 samples.

Results

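The miR-146, miR-155 and miR-21 families are the miRNAs most often named in inflammatory signaling, and in this series they were read in the brains of mice that overexpress a stress-related form of acetylcholinesterase. Members were chosen by hairpin name: mmu-mir-146a, mmu-mir-146b, mmu-mir-155 and mmu-mir-21a (written below without the species prefix), which are 4 of the 903 hairpins listed over all libraries and hold 8 of the 1514 pairs of a hairpin and a mature miRNA. TgR mice are transgenic FVB/N mice that constitutively overexpress human AChE-R, the soluble "readthrough" splice variant of the enzyme that breaks down acetylcholine, from a minimal CMV promoter-enhancer. Their controls were non-transgenic mice of the FVB/N strain. Small RNA was sequenced in 13 libraries, with 3 TgR and 3 FVB/N animals for the hippocampus and 4 TgR and 3 FVB/N animals for the prefrontal cortex (PFC). Age and sex of these animals are not given in the sources used here, nor is it stated whether hippocampus and PFC came from the same mice. Each sample was dissected tissue with all of its cell types, so fewer cells of a type and less RNA per cell cannot be told apart.

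A miRNA is cut from a hairpin as a 5p and a 3p strand (arm), and the loaded strand silences mRNAs that pair with its seed, bases 2 to 8. NF-kB, the transcription factor downstream of Toll-like receptors, induces miR-146a and miR-155. miR-146 lowers the adaptor proteins TRAF6 and IRAK1 and so acts as a brake on that pathway, whereas miR-155 is the product of an activation-induced host RNA of immune cells and microglia and targets the inhibitor SOCS1. miR-21 is induced by injury and cytokine signaling, targets PDCD4, and is abundant in glia. In brain, miR-155 is usually scarce without inflammation.

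The 4 sequences that carried nearly all reads of these hairpins are the 5p arms, shown with the seed in capitals because the seed decides which of them can share targets. All 8 member arms had a sequence in RefSeq (GRCm38.p6).
miR-146a-5p: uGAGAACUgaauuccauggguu
miR-146b-5p: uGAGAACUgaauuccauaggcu
miR-155-5p: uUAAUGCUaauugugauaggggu
miR-21a-5p: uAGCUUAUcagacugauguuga
miR-146a-5p and miR-146b-5p had the same seed and were identical at 20 of 22 bases. They differed by G18A and U21C, with positions counted from 1 at the 5′ end and the miR-146a base first. The counts of these arms therefore rest on the 2 differing bases, and a read shortened at its 3′ end before both of them could belong to either. The seeds of miR-155-5p and miR-21a-5p were unlike each other and unlike that of miR-146. One further listed miRNA, miR-21c, had the miR-21a-5p seed, and it held 1 read in the whole series.

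The 3p arms of the miR-146 hairpins were shown for contrast, since they share no seed.
miR-146a-3p: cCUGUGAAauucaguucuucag
miR-146b-3p: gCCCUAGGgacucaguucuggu
Compared base by base from the 5′ end, they were identical at 4 of 22 bases, a count that misses likeness at shifted positions. Both hold the stretch ucaguucu, which starts at a later base in miR-146b-3p.

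In the GENCODE annotation of GRCm38, Mir146 (the mir-146a hairpin) lies on the minus strand at chr11:43374397-43374461 in no annotated host gene. The nearest gene is the lincRNA Gm12148, 11021 bp away. Mir146b lies on the plus strand at chr19:46342762-46342870 within the protein-coding gene Mfsd13a of the same strand, in an intron, as no transcript has an exon there. Mir155 (chr16:84714140-84714204, plus strand) lies in an exon of its noncoding host Mir155hg. Mir21a (chr11:86584067-86584158, minus strand) overlaps an untranslated exon of 1 transcript of Vmp1, a gene of autophagy, on the same strand.

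The libraries held 8769851 to 18385985 counts (median 15376927). The members took between 0.310% and 0.595% of a library. Levels are given below as CPM, counts scaled to a common library total with TMM factors computed over all 13 libraries, and 3 counts, the fewest read here as above 0, correspond to 0.163 to 0.342 CPM, a floor for counting error only. No 2 libraries of one group agreed within sampling noise (chi-square per degree of freedom at least 62.9).

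The order of the members was the same in all 13 libraries: miR-21a-5p was the most abundant, followed by miR-146b-5p, miR-146a-5p and miR-155-5p. Over the 13 libraries miR-21a-5p averaged 2615 CPM and ranked 37 among 1384 mature miRNAs. miR-146b-5p averaged 1022 CPM (rank 63), miR-146a-5p 240.3 CPM (rank 140) and miR-155-5p 1.71 CPM (rank 498). Within a library the count of miR-21a-5p was 1.45 to 4.62 times that of miR-146b-5p, which in turn was 3.46 to 6.25 times that of miR-146a-5p. The step to miR-155-5p was of another size, as miR-146a-5p exceeded it 74.9-fold to 332-fold. These steps compare mature miRNAs of nearly one length, but adapter ligation differs between sequences, so they are ratios of reads.

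Of the 3p arms, miR-146b-3p was counted in every library, at 19 to 46 reads. miR-21a-3p reached at most 10 reads in a library and 54 in all, with none in 2 of the TgR PFC libraries. miR-146a-3p had 2 reads and miR-155-3p had 3 reads in the whole series. These last 3 arms did not pass the minimum count and were not tested, so 5 of the 8 member arms entered the comparisons.

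**Figure D1:**
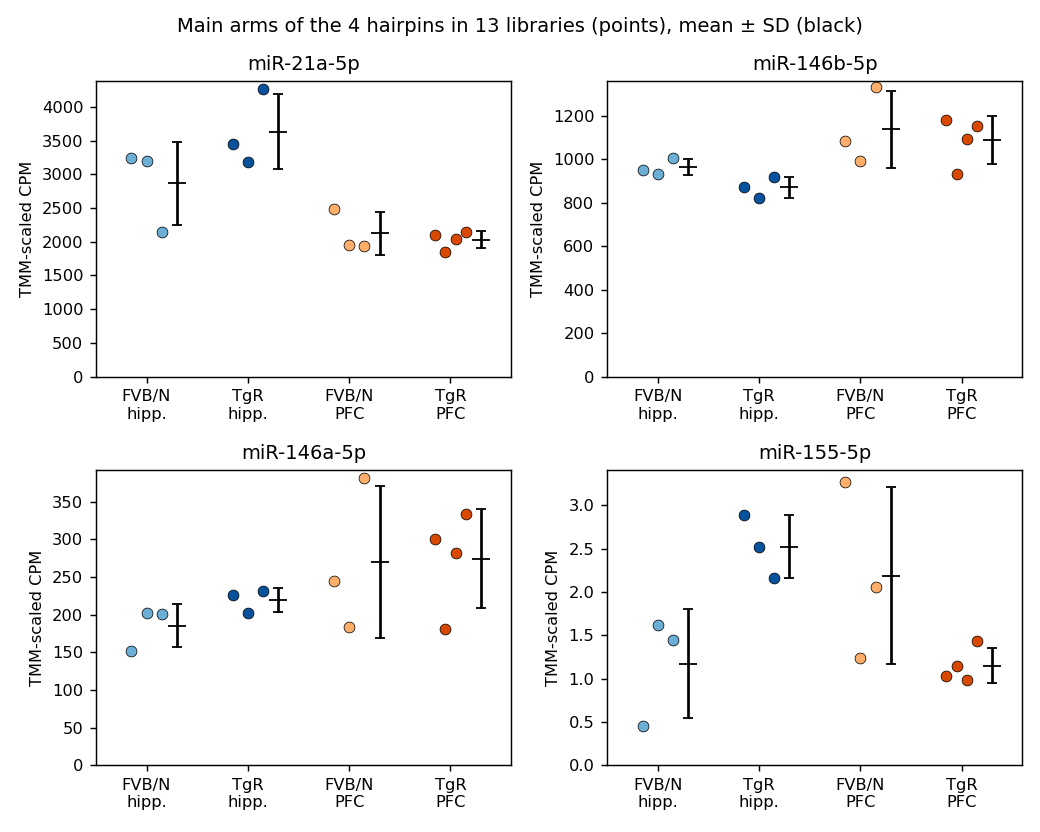
Levels of the 4 main 5p arms (vertical axes, TMM-scaled CPM from 0) in the 4 groups (horizontal axes). Each point is 1 library, the black mark and bar are the group mean and SD. All 3 TgR hippocampi lie above all 4 TgR PFC libraries for miR-21a-5p (3186 to 4259 against 1850 to 2146 CPM), as in 10.1% of all tested pairs. miR-155-5p stays below 3.3 CPM throughout.

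The comparison of genotypes asks whether overexpressed AChE-R goes with other levels of these miRNAs in each region, and the comparison of regions asks where in the brain each was higher. Differences were tested by edgeR's quasi-likelihood test and are given as log2 differences with their standard error (SE) and 95% interval (CI). P-values were adjusted over all pairs tested in the comparison, with 0.05 as the threshold. Of the 5 tested member arms, 0 passed between genotypes in hippocampus, where 3.44% of all 726 tested pairs did, and 0 passed in PFC, where 0.137% of 730 did. The difference between the genotype effects of the regions passed for 0 of the 5 arms (0.533% of 751 pairs). Between hippocampus and PFC, 0 of the 5 passed in FVB/N mice (5.33% of 751 pairs) and 1 of the 5 in TgR mice (7.99%, of which 3.86% higher in hippocampus), namely miR-21a-5p. At an unadjusted p under 0.05, the numbers of all pairs in these 5 comparisons were 127, 19, 61, 152 and 151. DESeq2, run as an alternative, called 0, 0, 1, 0 and 2 of the arms in the same order, and gave no adjusted p for miR-146b-3p and miR-155-5p between regions in FVB/N mice.

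**Figure D2:**
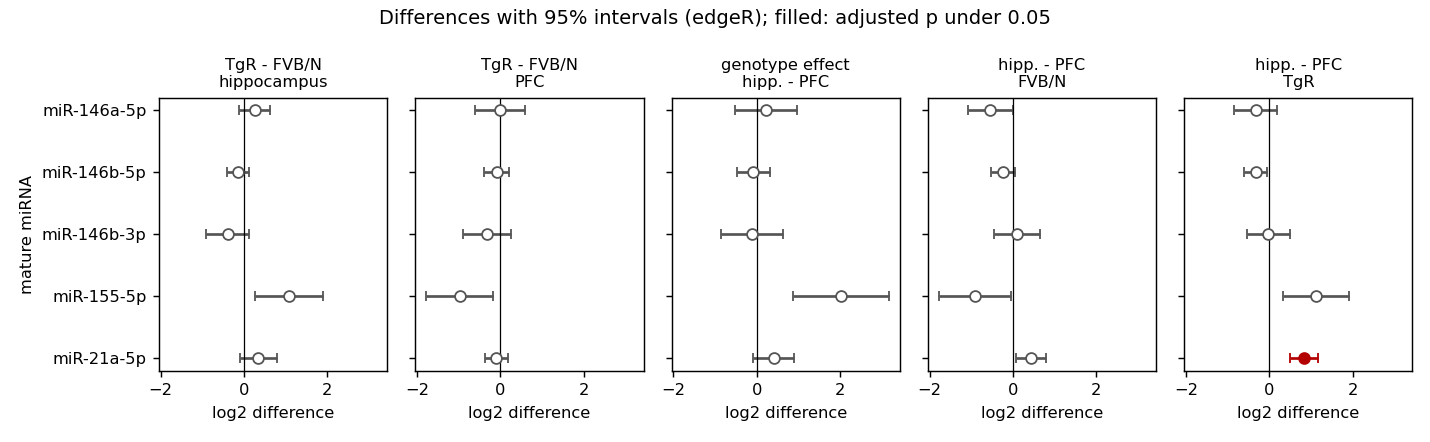
Log2 differences (horizontal axes) of the 5 tested member arms (vertical axis) in 5 comparisons, with 95% intervals from edgeR. Filled red marks have an adjusted p under 0.05, which holds for miR-21a-5p between hippocampus and PFC in TgR mice. The intervals of miR-155-5p are the widest, and its point lies to the right of 0 for genotype in hippocampus (1.08) and to the left in PFC (−0.98).

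The 2 miR-146 hairpins, the brake on the Toll-like receptor pathway, gave levels close to each other between genotypes. In hippocampus miR-146a-5p was at 152, 202 and 202 CPM in the FVB/N libraries and at 226, 202 and 231 CPM in the TgR libraries. The ranges met at 202 CPM, and the other 2 TgR libraries were above all FVB/N ones. The log2 difference was 0.25 (SE 0.16, CI −0.11 to 0.62), with an adjusted p of 0.43 by edgeR. Without FVB/N hippocampus 1 it was 0.073. In PFC it was at 245, 184 and 381 CPM in FVB/N and at 301, 181, 282 and 334 CPM in TgR. Here the groups overlapped over nearly their whole range, with a log2 difference of −0.0090 (SE 0.26, CI −0.61 to 0.59) and an edgeR adjusted p of 1.00. The sign of that value differed between alternatives and without single libraries.

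miR-146b-5p, the more abundant copy, was at 952, 934 and 1006 CPM in FVB/N hippocampus and at 873, 825 and 921 CPM in TgR hippocampus. The TgR libraries were thus all below the FVB/N ones, which was so in 13.2% of all tested pairs. On counts scaled by library size alone the 2 groups overlapped. The difference was −0.14 on the log2 scale (SE 0.12, CI −0.40 to 0.13; edgeR adjusted p = 0.54). In PFC the values were 1085, 993 and 1335 CPM in FVB/N and 1180, 932, 1092 and 1156 CPM in TgR, which overlapped (−0.091, SE 0.13, edgeR adjusted p = 1.00). Its 3p arm differed by −0.39 in hippocampus and by −0.31 in PFC, with edgeR adjusted p of 0.38 and 1.00.

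Between regions, both miR-146 5p arms had lower means in hippocampus than in PFC, and neither passed the test. miR-146a-5p differed by −0.54 in FVB/N mice (SE 0.26, CI −1.09 to 0.0024; edgeR adjusted p = 0.25) and by −0.32 in TgR mice (adjusted p = 0.52). Without FVB/N PFC 3 the FVB/N value was −0.22. miR-146b-5p differed by −0.24 in FVB/N mice (adjusted p = 0.38). In TgR mice its 3 hippocampal libraries, at most 921 CPM, lay below the 4 PFC libraries, at least 932 CPM, with a log2 difference of −0.32 (SE 0.13, CI −0.60 to −0.045; edgeR adjusted p = 0.16). Such a gap in the same direction was present in 12.4% of all pairs. Ordered by mean level, miR-146b-5p stood at 1138, 1090, 964 and 873 CPM in FVB/N PFC, TgR PFC, FVB/N hippocampus and TgR hippocampus. miR-146a-5p stood at 275, 270.1, 219.7 and 185 CPM in TgR PFC, FVB/N PFC, TgR hippocampus and FVB/N hippocampus. No neighbours in either order whose difference was tested passed.

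As miR-146a-5p and miR-146b-5p have the same seed, their reads add up to a common pool, and the share of miR-146a-5p in that pool was computed for each library. It was 13.8%, 17.8% and 16.7% in FVB/N hippocampus (mean 16.1% ± 2.05, SD, n = 3) and 20.6%, 19.7% and 20.1% in TgR hippocampus (20.1% ± 0.463, n = 3). The 2 groups did not overlap. At the gap between them, the exact binomial interval was 17.2% to 18.3% in FVB/N hippocampus 2 and 19.0% to 20.3% in TgR hippocampus 2, which covers counting error and not the spread between animals. With 3 against 3 libraries no exact test of this share could reach 0.05, and none was made. In PFC the share was 18.4%, 15.6% and 22.2% in FVB/N and 20.3%, 16.3%, 20.5% and 22.4% in TgR mice, which overlapped. Hippocampus and PFC differed by −1.31 percentage points (exact two-sided permutation test within genotype, 700 assignments, p = 0.36). This share was computed after the counts had been seen, and it rests on the few bases that tell the 2 arms apart.

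**Figure D3:**
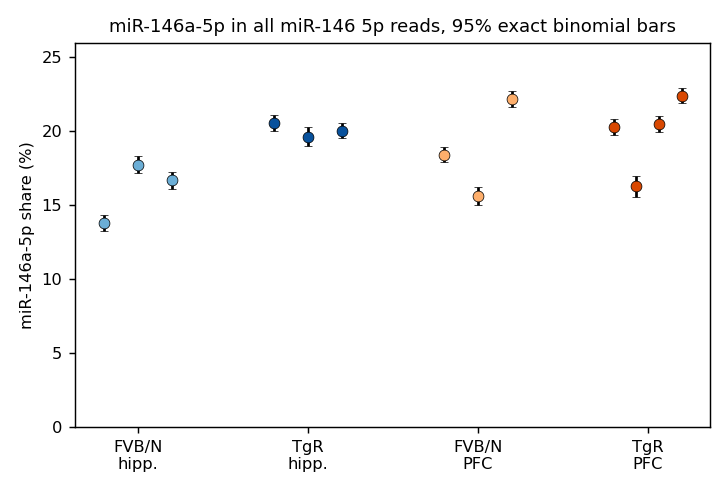
Share of miR-146a-5p in all miR-146 5p reads of each library (vertical axis, percent from 0) in the 4 groups (horizontal axis), with 95% exact binomial bars for counting error. The TgR hippocampi lie between 19.7% and 20.6%, above the FVB/N hippocampi at 13.8% to 17.8%, while the PFC groups overlap.

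The activation-induced miR-155-5p was read rarely. The FVB/N hippocampi held 6, 27 and 18 reads and the TgR hippocampi 54, 38 and 41 reads, or 0.459, 1.62 and 1.45 CPM against 2.89, 2.52 and 2.17 CPM. All 3 TgR hippocampi were above all 3 FVB/N hippocampi, as were 11.4% of all tested pairs. The difference was 1.08 on the log2 scale (SE 0.36, CI 0.26 to 1.90), with an edgeR adjusted p of 0.16, so it was not called. The lowest library, FVB/N hippocampus 1, had 6 reads, for which the exact Poisson interval is 2.20 to 13.1, and without it the difference was 0.66 (edgeR adjusted p = 0.27).

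In PFC the order was the other way round. FVB/N PFC held 55, 14 and 29 reads of miR-155-5p (3.27, 1.24 and 2.06 CPM) and TgR PFC held 15, 11, 15 and 23 reads (1.03, 1.15, 0.990 and 1.44 CPM). The ranges overlapped through FVB/N PFC 2. The log2 difference was −0.98 (SE 0.36, CI −1.79 to −0.16; edgeR adjusted p = 1.00), and without FVB/N PFC 1, the library with 55 reads, it was −0.54. The difference between the 2 genotype effects, hippocampus minus PFC, was 2.03 (SE 0.54, CI 0.86 to 3.19) with an edgeR adjusted p of 0.13. DESeq2 gave 2.07 with an adjusted p of 0.041 on the same libraries, and edgeR without the filter on low counts gave 2.14 (adjusted p = 0.035), so the call depended on the tool and on the filter.

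By region, miR-155-5p differed by −0.91 (SE 0.40, CI −1.77 to −0.045) between hippocampus and PFC in FVB/N mice, with an edgeR adjusted p of 0.21 and overlapping ranges. It was −0.53 without FVB/N PFC 1 and −0.49 without FVB/N hippocampus 1. In TgR mice the hippocampal libraries were all above the PFC libraries, as were 10.1% of all tested pairs, with a log2 difference of 1.12 (SE 0.36, CI 0.34 to 1.90) and an edgeR adjusted p of 0.083. DESeq2 put that difference past the threshold (1.14, adjusted p = 0.048). The mean levels stood in the order TgR hippocampus (2.52 ± 0.360 CPM, n = 3), FVB/N PFC (2.19 ± 1.02, n = 3), FVB/N hippocampus (1.17 ± 0.626, n = 3) and TgR PFC (1.15 ± 0.203, n = 4), and no neighbours in that order whose difference was tested passed.

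Marker miRNAs of white blood cells and microglia, cells in which miR-155 is known to be made, were read beside it. Their 10 listed arms came from the miR-142, miR-223, miR-150, miR-342 and miR-511 hairpins. They summed to 626 to 640 CPM in FVB/N and 672 to 772 CPM in TgR hippocampus, and 0 of the 7 tested arms passed between genotypes there. The higher TgR sum was mainly miR-150-5p (mean 215 against 254 CPM) and miR-342-3p (215 against 257 CPM). The miR-142a arms had slightly lower TgR means (3p 61.8 against 60.6 CPM, 5p 118 against 112 CPM). In PFC the list summed to 752 to 1073 CPM in FVB/N and 758 to 963 CPM in TgR mice, again with 0 of 8 called. The 2 miR-511 arms fell below the floor of 3 counts, down to 0.0528 CPM for miR-511-5p and 0.0711 CPM for miR-511-3p, while the miR-142a, miR-150, miR-342 and miR-223-3p arms were above it in every library. Between regions in TgR mice, 2 of the 8 tested arms were called lower in hippocampus, beside 4.13% of all pairs. They were the arms of miR-142a, the most specific blood cell marker of the list (log2 difference −0.62 and −0.61, edgeR adjusted p = 0.040 and 0.010). The 8 arms ranged from −1.38 to 0.0022, with a median of −0.50, while miR-155-5p was higher in value.

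Other cell type markers also moved between the hippocampal genotypes. Red blood cell markers summed to 1326 to 1491 CPM in FVB/N and to 591 to 836 CPM in TgR hippocampus. Of their 7 arms 2 were called lower, as were 11 of all 726 tested pairs. Choroid plexus and ependyma markers summed to 1002 to 1379 CPM and to 1669 to 6001 CPM. Of their 13 arms 7 were called higher, as were 1.93% of all tested pairs. Blood vessel markers (0 of 6) and neuronal markers (0 of 7) had no call. The neuronal markers miR-124, miR-128 and miR-138 summed to 90153 to 188341 CPM over all libraries, the most of any marker list. The part of these cells in the values of miR-155-5p or of the other members was not tested.

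The injury-responsive miR-21a-5p was the member that passed a test. In TgR mice it was at 3454, 3186 and 4259 CPM in hippocampus and at 2099, 1850, 2035 and 2146 CPM in PFC. Every hippocampal library was above every PFC library, as in 10.1% of all tested pairs, miR-155-5p among them. The log2 difference was 0.84 (SE 0.16, CI 0.50 to 1.17), with an edgeR adjusted p of 0.0038, and the mean in hippocampus was 1.79 times that in PFC. In FVB/N mice it was at 3239, 3204 and 2149 CPM in hippocampus and at 2488, 1947 and 1936 CPM in PFC. The first 2 hippocampal libraries were above all PFC libraries and the third was among them. The log2 difference was 0.43 (SE 0.17, CI 0.069 to 0.79; edgeR adjusted p = 0.15), and it passed (0.60, adjusted p = 0.038) without FVB/N hippocampus 3.

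The region difference of miR-21a-5p was not shown to depend on genotype, as the difference between the genotype effects of the regions, which is the same contrast, was 0.41 (SE 0.23, CI −0.087 to 0.90; edgeR adjusted p = 0.71). Between genotypes, the log2 difference was 0.35 in hippocampus (SE 0.19, CI −0.093 to 0.79; edgeR adjusted p = 0.37) and −0.094 in PFC (SE 0.12, CI −0.38 to 0.19; adjusted p = 1.00), with overlapping groups in both. Without FVB/N hippocampus 3 the hippocampal value was 0.13. The mean levels stood in the order TgR hippocampus (3633 ± 559 CPM, n = 3), FVB/N hippocampus (2864 ± 619, n = 3), FVB/N PFC (2124 ± 316, n = 3) and TgR PFC (2032 ± 130, n = 4), and no neighbours in that order differed past the test.

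Several marker lists differed between the regions beside miR-21a-5p. Oligodendrocyte marker miRNAs, from the miR-219a and miR-338 hairpins, were higher in hippocampus. Their 5 arms summed to 1436 to 1967 CPM in FVB/N hippocampus and 1833 to 2909 CPM in TgR hippocampus, against 694 to 862 CPM in FVB/N PFC and 583 to 795 CPM in TgR PFC. All 5 had reads in every library. In TgR mice 4 of the 5 were called higher in hippocampus, beside 3.86% of all tested pairs. Among them were miR-219a-2-3p with a log2 difference of 2.22 (edgeR adjusted p = 0.00017) and miR-338-3p with 1.36 (adjusted p = 0.0015). In FVB/N mice 3 of the 5 were called higher, beside 3.2% of all pairs, with miR-219a-2-3p at 1.52 (adjusted p = 0.0072). None was called between genotypes in either region. FVB/N hippocampus 3, the hippocampal library lowest in miR-21a-5p, was also the lowest in miR-219a-2-3p (606 CPM), miR-219a-5p and miR-338-3p. miR-338-5p was lowest in TgR hippocampus 2 (425 against 491 CPM in FVB/N hippocampus 3). TgR hippocampus 3 was the highest in miR-21a-5p and in these arms (1565 CPM of miR-219a-2-3p). The scarce miR-219a-1-3p was lowest in a TgR hippocampus (2.01 CPM) and highest in an FVB/N one (2.83 CPM). In PFC, TgR PFC 2 was the lowest in miR-21a-5p and miR-219a-2-3p (153 CPM) but the highest in miR-338-3p (253 CPM). Choroid plexus and ependyma markers also summed higher in hippocampus, at 1002 to 1379 against 649 to 878 CPM in FVB/N mice (1 of 13 called higher) and at 1669 to 6001 against 686 to 1016 CPM in TgR mice (9 of 13). In TgR mice red blood cell markers were lower in hippocampus (591 to 836 against 1460 to 2410 CPM, 3 of 7 called, beside 4.13% of all pairs). The neuronal markers were lower there only in their sum (96478 to 110951 against 129054 to 188289 CPM, 1 of 7 called). That sum was mostly miR-128-3p (mean 97192 against 159745 CPM), while miR-124-3p had the higher mean in hippocampus (5637 against 4663 CPM). The median log2 difference of the 7 tested neuronal arms was −0.062. The part of any of these cells in the level of miR-21a-5p was not tested.

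**Figure D4:**
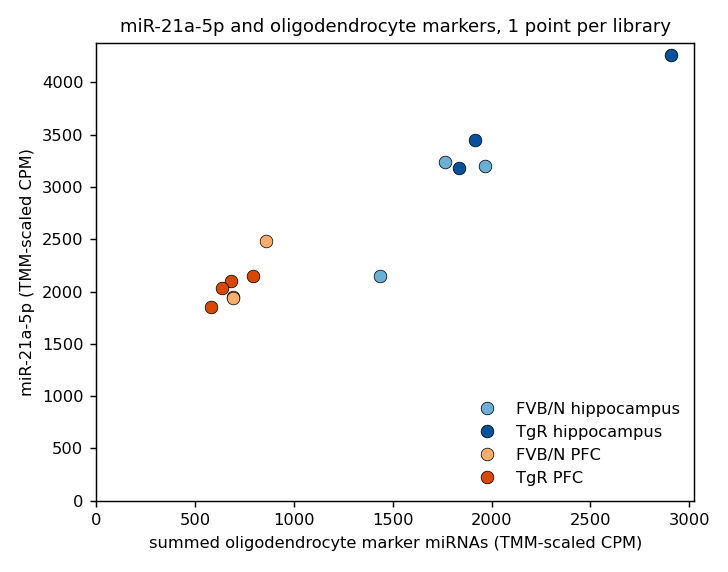
miR-21a-5p (vertical axis, TMM-scaled CPM) against the summed CPM of 5 oligodendrocyte marker arms (horizontal axis) in 13 libraries, 1 point each, coloured by group, both axes from 0. The 6 hippocampal libraries lie to the right, at 1436 to 2909 summed CPM, and the PFC libraries at 583 to 862.

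For each hairpin, the share of reads on the 5p arm shows how one-sided the strand choice was. It averaged at least 99.99% in each group for mir-146a, from 99.986% to 99.994% for mir-21a, from 99.72% to 99.81% for mir-146b, and at least 98.5% for mir-155, whose 3p arm had too few reads to give a finer value. For mir-146b the 5p share was 99.72% ± 0.045 and 99.77% ± 0.044 in FVB/N and TgR hippocampus (SD, n = 3 each) and 99.78% ± 0.020 (n = 3) and 99.81% ± 0.039 (n = 4) in FVB/N and TgR PFC. Hippocampus was lower by −0.053 percentage points (exact two-sided permutation test within genotype, p = 0.021, adjusted over the 4 hairpins 0.086; smallest p the design allows 0.0014). For mir-21a the same exact test gave an adjusted p of 0.22. For mir-155 and mir-146a it could not reach 0.05, as only 3 and 2 libraries held a read of the 3p arm. Nothing is concluded from these 2 hairpins, though both count in the adjustment over the 4.

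The members' deviations from their group means over the 13 libraries were compared to see which miRNAs varied with them from animal to animal. miR-146a-5p and miR-146b-5p varied together (Pearson r = 0.93, Spearman rho = 0.88), whereas the other 5 pairs of members had r between −0.071 and 0.43. Without the 2 libraries farthest from the median of miR-146a-5p or of miR-146b-5p, r was 0.84 and 0.83. The part of reads that could belong to either arm in this likeness was not tested. The 3 abundant miRNAs most like miR-146a-5p were miR-185-5p (r = 0.93), miR-146b-5p and miR-1839-5p (0.91). Those most like miR-146b-5p were miR-3099-3p and miR-181b-5p (0.94 each) and miR-146a-5p. Nearest to miR-21a-5p were miR-16-1-3p (0.85), miR-219a-2-3p (0.83) and miR-101b-3p (0.81). For miR-155-5p the highest values were those of miR-652-3p (0.74), miR-532-3p (0.69) and miR-1224-5p (0.67). They fell to 0.40, 0.47 and 0.26 without the 2 libraries farthest from the median of miR-155-5p, and thus rested on those libraries. These values were picked as the highest of 359 or 360 candidates, the points share depth and scaling, and they are descriptions only.

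Other miRNAs linked to NF-kB and Toll-like receptor signaling were read for comparison from a list of 26 arms (let-7i, miR-9, miR-19, miR-23b, miR-125, miR-132, miR-187, miR-203, miR-212 and miR-223 among them, the last of which is also a white cell marker). In hippocampus, 1 of 22 tested arms was called between genotypes, beside 3.44% of all tested pairs. It was miR-23b-5p, higher in TgR mice (log2 difference 1.05, SE 0.22, edgeR adjusted p = 0.045), as were 1.93% of all tested pairs. This arm was scarce, at 1.08 to 1.91 CPM in FVB/N and 3.05 to 3.12 CPM in TgR hippocampus. The abundant arm, miR-23b-3p, was not called (mean 509 against 662 CPM). The median over the list was 0.15, beside −0.0031 over all tested pairs. In PFC and for the difference between the genotype effects, 0 of 23 were called.

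Between regions the list split. In FVB/N mice 3 of 23 arms were higher in hippocampus and 4 were lower, against 3.2% and 2.13% of all pairs. In TgR mice 3 were higher and 2 lower, against 3.86% and 4.13%. Both arms of miR-187, which is known as an IL-10-induced repressor of TNF, were higher in hippocampus in both genotypes, by 2.67 and 2.79 on the log2 scale in FVB/N mice (3p and 5p) and by 2.76 and 2.97 in TgR mice (edgeR adjusted p at most 0.0047). The miR-132 and miR-212 arms, of which miR-132 targets the acetylcholinesterase mRNA, were lower in hippocampus in FVB/N mice. miR-132-3p differed by −1.11 (edgeR adjusted p = 0.0047), miR-132-5p by −1.04, miR-212-3p by −1.11 and miR-212-5p by −1.02. In TgR mice miR-132-5p (−0.89) and miR-212-5p (−0.76) were called, and miR-132-3p, at −0.52, was not (adjusted p = 0.088). The remaining calls were miR-125b-2-3p in FVB/N mice (0.56) and let-7i-3p in TgR mice (0.66), both higher in hippocampus. The list medians were −0.056 in FVB/N and −0.054 in TgR mice, beside −0.019 and 0.017 over all pairs.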

How the data were processed

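Small RNA reads were checked by the authors with FastQC and aligned with miRExpress to miRBase, and the deposited values are raw read counts for each pair of a hairpin and a mature miRNA. Unlisted pairs count as 0. Mature miRNAs made from more than 1 hairpin appear once for every hairpin, so library totals are 1.59 to 1.66 times those with 1 row per mature miRNA; each member has 1 hairpin.

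Counts were fitted with edgeR 4.0.16 in R 4.3.3 (TMM, filterByExpr with a minimum count of 10, quasi-likelihood test, Benjamini-Hochberg adjustment over all tested pairs). Genotypes were compared within each region, and regions and the difference between genotype effects in 1 fit of 13 libraries in 4 groups. SE is the log2 difference divided by the square root of F. Alternatives were DESeq2 1.42.0, its size factors, library size only, no filter, 1 row per mature miRNA, other sets of libraries in the fit, the replicate number as a block, and each library left out. Arm shares were compared by exact permutation in SciPy 1.17.1. Scripts were tested on simulated data.

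Named were all arms of the members and of the lists, miRNAs sharing a seed with a member, and the 3 arms of at least 10 CPM most correlated with each member; the members and lists were chosen with earlier results of these data known. Groups came from sample titles. For FVB/N PFC, the deposited tables carry another animal numbering than the titles. The transgene's mRNA is not measured in small RNA libraries. Depth limits the rare arms, and the spread between the 3 to 4 animals of a group limits the others.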

Additional observations from a re-analysis of the deposited data

Results flagged for a closer look

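One library stood apart from the rest of its group. In TgR PFC the 5p share of mir-146b was 99.8673% in replicate 3 (22 reads on the 3p arm), while the other 3 libraries were between 99.7838% and 99.7966%, and the gap took 0.846 of the group's range. The 9 groups of values checked in this way were all from TgR PFC, which has 4 libraries. The groups of 3 libraries were not checked, so nothing is said here of theirs. Of the 9, 1 was past the limit, and chance alone passes it in about 1 group in 20. The exact binomial interval of replicate 3, 99.80% to 99.92%, overlapped those of the other libraries.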

How the results depend on the processing

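Over 430 member values under alternatives, 400 kept their direction and their side of the threshold (2 DESeq2 values among them have no adjusted p), 8 passed it anew and 22 changed sign. miR-21a-5p between regions in TgR mice was called under all 20 alternatives (0.71 to 0.98, adjusted p 2.7e-05 to 0.034). miR-155-5p was called under a few. Without the filter it passed between hippocampal genotypes (1 member called, adjusted p = 0.018; range over 13 alternatives 0.018 to 0.34) and for the difference between genotype effects (1, adjusted p = 0.035), where DESeq2 also called it (1, 0.041; range over 19 alternatives 0.035 to 0.35). Between regions in TgR mice 2 members, miR-21a-5p and miR-155-5p, were called by DESeq2, without the filter, with the TgR libraries alone (miR-155-5p adjusted p = 0.048, 0.028 and 0.011) and without FVB/N hippocampus 1 (0.035), so leaving out single libraries gave 1 to 2; in FVB/N mice it gave 0 to 1, the 1 being miR-21a-5p without FVB/N hippocampus 3.

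The replicate numbers were not used as pairs, as not every correlation of same-numbered deviations between hippocampus and PFC was over 0.1 (0.050 to 0.19 in FVB/N mice, where the PFC numbering is itself uncertain, and −0.13 to 0.41 in TgR mice). Differently numbered libraries gave −0.23 to 0.11 in FVB/N mice and −0.45 to 0.36 in TgR mice. Whether a number marks 1 mouse in both regions is not settled by these values. With the number as a block, 9 pairs were called between hippocampal genotypes in place of 25, and the called members stayed as they were; miR-146b-3p between regions in TgR mice was at 0.10. TgR PFC 4 has no partner and was left out of every block fit that used PFC libraries. Between regions the block was the number within genotype, which takes equal numbers as 1 mouse.

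Over all pairs, DESeq2 called 54 between hippocampal genotypes, 26 for the difference between genotype effects and 91 between regions in FVB/N mice, and without the filter these were 63, 13 and 69. The FVB/N libraries alone gave 24. Leaving out single libraries gave 1 (without FVB/N hippocampus 3) to 28 calls between hippocampal genotypes, with 12 without FVB/N hippocampus 1 and 9 without TgR hippocampus 3. It gave 2 to 8 for the difference between genotype effects, 23 (without FVB/N hippocampus 2) to 60 between regions in FVB/N mice and 28 (without TgR hippocampus 1) to 81 in TgR mice. Scaling by library size alone moved the median of all pairs from 0.017 to 0.14 between regions in TgR mice and from 0.0081 to 0.15 for the difference between genotype effects, and miR-21a-5p and miR-155-5p relative to that median stayed at 0.83 and 1.11 in the first and 0.41 and 2.03 in the second. It also moved the split of higher and lower calls from 29 and 31 to 49 and 20 between regions in TgR mice, and from 14 and 11 to 12 and 6 between hippocampal genotypes.

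All sign changes were of values that no alternative called. miR-146a-5p between PFC genotypes was 0.025 with all libraries in one fit and −0.22 to 0.31 without single libraries; miR-146b-5p and miR-21a-5p there ranged from −0.18 to 0.028 and from −0.17 to 0.056. For the difference between genotype effects, miR-146b-5p was 0.059 with library size only and 0.022 without the filter, miR-146b-3p was 0.033 with library size only, and single libraries gave −0.17 to 0.045, −0.27 to 0.077 and, for miR-146a-5p, −0.064 to 0.48. miR-146b-3p between regions was −0.013 to 0.18 in FVB/N mice without single libraries. In TgR mice it was 0.12 (library size only), 0.13 (no filter), 0.049 (1 row per mature miRNA), 0.0087 (TgR libraries alone) and −0.17 to 0.17 without single libraries. The 5p share difference without single libraries was −0.0039 to 0.0035 points for mir-146a, −0.066 to −0.039 for mir-146b (exact adjusted p = 0.027 without TgR hippocampus 2), −0.73 to 0.11 for mir-155 and −0.0080 to −0.0049 for mir-21a. The cause of these changes was not tested.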
